A study of Rattus norvegicus with 46 samples.

Results

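The genes described here are 10 transcripts of the hypoxia response and of glycolysis: Slc2a1, Hk2, Pfkfb3, Ldha, Pgk1, Eno1, Vegfa, Bnip3, Ankrd37 and Adm. They were taken by symbol from the array's annotation, in which each of the 10 had 1 feature, out of 15049 features with 1 gene symbol and 23188 features tested. They were measured in abdominal skin of Sprague-Dawley rats on 46 single-colour Clariom S arrays, an expression array with 1 summarised signal per transcript. All animals gave repeated 5 mm punch biopsies. The 3 arms were irradiated skin of rats given RTA-408 (3 arrays on each of days -4, 1, 3, 7 and 14), irradiated skin of rats given the DMSO vehicle (3 arrays a day) and sham-irradiated skin of rats given the vehicle (2 arrays a day, called unirradiated below). Baseline skin of day -10 (6 arrays) was taken before any drug or radiation. Radiation was 40 Gy of 6 MeV electrons in 4 fractions of 10 Gy, and injections fell on days -7, -5, -3 and 0, so the biopsies of day -4 fell within treatment. RTA-408 is a synthetic triterpenoid that activates NRF2, the factor that switches on antioxidant genes.

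When oxygen is short, the hydroxylases that mark HIF-1 alpha for destruction slow down, and the factor enters the nucleus and binds short DNA elements with the core letters ACGTG or GCGTG. Its targets raise glucose uptake (Slc2a1), trap glucose and drive its breakdown (Hk2, Pfkfb3, Pgk1, Eno1), turn pyruvate into lactate (Ldha), call in vessels (Vegfa, Adm) and remove mitochondria (Bnip3). The same genes also respond to growth and inflammatory signals, and skeletal muscle and activated leukocytes express many of the glycolytic ones at high levels.

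The 46 arrays came from 9 rats, so the 5 days of an arm are repeated biopsies of the same animals. The exception is unirradiated replicate 2, which was 1 rat up to day 3 and another from day 7. Array medians lay between 6.84 and 6.95, and arrays of a group correlated at 0.93 to 0.99 over all features. Skin markers were bright on every array (Krt14 at 15.88 to 18.87 and Col1a1 at 17.69 to 19.48), whereas the muscle gene Acta1 ran from 7.87 to 19.92. The 10 skeletal muscle markers measured averaged 6.95 on the RTA-408 array of day -4, replicate 1, 8.36 on the unirradiated array of day 1, replicate 1, and 6.35 on baseline replicate 2, against up to 18.51 elsewhere. Spike-in controls parted the arrays into 3 sets of 18, 10 and 18 arrays, called spike-in sets I, II and III. Each irradiated group had 1 array in set II and the others in set I (days -4 and 1) or set III (days 3, 7 and 14). The unirradiated arrays were in set I on days -4 and 1 and in set III later, and all baseline arrays were in set I, so that a comparison with baseline on days 3, 7 and 14 is also one between sets. The unirradiated array of day 1, replicate 2, is called day 1 in its title and day 3 in its description, and the title was followed.

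Promoter windows are shown for 4 of these genes because the comparisons below turn on them: Slc2a1 and Eno1, whose radiation effect changed over the days, and Bnip3 and Vegfa, which were above baseline in RTA-408 skin on day 1. Each window runs from 250 bases before to 50 after the RefSeq gene start (GRCr8), 5′ to 3′ on the gene's strand, with capitals marking ACGTG or GCGTG read on either strand. They are Slc2a1 at chr5:138002272-138002571 (plus strand), the downstream of both listed starts of Eno1 at chr5:166003111-166003410 (plus), Bnip3 at chr1:203154913-203155212 (minus) and the upstream of both listed starts of Vegfa at chr9:22452604-22452903 (plus).
Slc2a1: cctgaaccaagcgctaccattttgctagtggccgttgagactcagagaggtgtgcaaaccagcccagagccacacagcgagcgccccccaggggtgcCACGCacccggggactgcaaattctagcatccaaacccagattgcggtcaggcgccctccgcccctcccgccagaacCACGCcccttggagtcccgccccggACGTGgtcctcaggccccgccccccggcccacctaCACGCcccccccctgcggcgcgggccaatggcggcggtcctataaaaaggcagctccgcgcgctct
Eno1: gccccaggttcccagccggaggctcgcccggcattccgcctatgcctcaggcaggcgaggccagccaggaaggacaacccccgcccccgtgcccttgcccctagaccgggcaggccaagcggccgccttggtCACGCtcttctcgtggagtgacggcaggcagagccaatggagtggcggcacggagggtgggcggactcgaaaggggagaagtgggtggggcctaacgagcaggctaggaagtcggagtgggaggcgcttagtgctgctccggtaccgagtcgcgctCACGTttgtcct
Bnip3: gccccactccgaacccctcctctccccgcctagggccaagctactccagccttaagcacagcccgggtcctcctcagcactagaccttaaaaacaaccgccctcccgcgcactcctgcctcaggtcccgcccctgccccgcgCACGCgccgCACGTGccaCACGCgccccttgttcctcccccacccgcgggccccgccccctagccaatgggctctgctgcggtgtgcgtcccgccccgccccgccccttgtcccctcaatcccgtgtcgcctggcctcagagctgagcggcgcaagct
Vegfa: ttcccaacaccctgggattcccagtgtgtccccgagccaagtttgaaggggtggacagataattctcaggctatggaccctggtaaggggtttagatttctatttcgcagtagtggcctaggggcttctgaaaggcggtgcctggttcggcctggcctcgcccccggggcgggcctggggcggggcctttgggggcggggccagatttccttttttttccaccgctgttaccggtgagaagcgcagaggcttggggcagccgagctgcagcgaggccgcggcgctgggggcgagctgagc
The Slc2a1 window holds 1 ACGTG and 3 GCGTG, the Eno1 window holds 1 of each, and the Bnip3 window holds both strands of an ACGTG palindrome between 2 GCGTG. Neither Vegfa window holds either motif. Of the 9 members with a RefSeq window (Pgk1 was not matched), 6 held ACGTG or GCGTG, as did 41.6% of all 33469 promoters of that length. The ACGTG motif alone was found in 6 of the 9, and in 19.3% of all promoters. The antioxidant response type motif TGACNNNGC, of the kind that NRF2 binds, was found in 0 of the 9 and in 12.1% of all promoters. ACGTG overlaps its own reverse complement where the letters read CACGTG. A match is a description of letters and does not show binding.

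**Figure D1:**
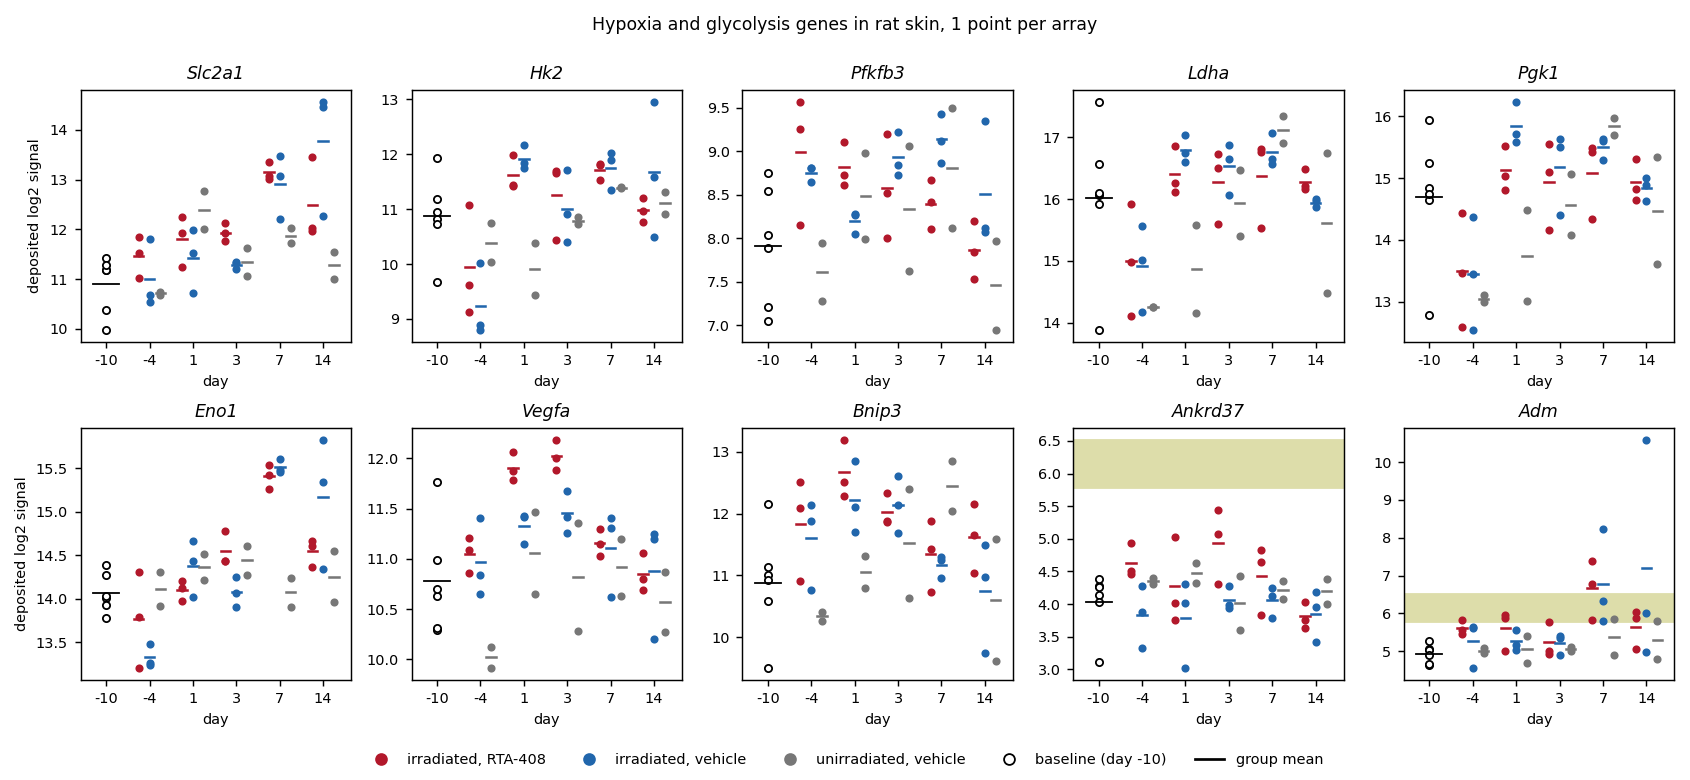
Deposited log2 signal (vertical axis, log2 units) of each of the 10 genes on every array by day, with short bars for group means; shaded bands in the Ankrd37 and Adm panels span the negative control medians of the arrays. The 3 highest group means of Slc2a1 and of Eno1 are RTA-408 skin of day 7 and irradiated vehicle skin of days 7 and 14, Ankrd37 lies under the band on all 46 arrays and Adm lies at or under its own array's control median on 40 of 46.

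Ankrd37 and Adm gave little or no signal. All levels given here are deposited log2 signals, which cannot be set against each other between genes. Ankrd37, an ankyrin repeat protein and HIF-1 target, read 3.02 to 5.44 and on all 46 arrays did not exceed the array's own median over 1153 negative control features. Adm, which encodes the vasodilator peptide adrenomedullin, stayed at or under that level on 40 of 46 arrays. The 6 exceptions were all irradiated skin of days 7 and 14. The other 8 members were above the negative controls on all arrays, with ranges of 9.97 to 14.57 for Slc2a1, 8.80 to 12.96 for Hk2, 6.94 to 9.57 for Pfkfb3 and 13.88 to 17.58 for Ldha. Pgk1 ranged from 12.54 to 16.24, Eno1 from 13.20 to 15.83, Vegfa from 9.91 to 12.19 and Bnip3 from 9.50 to 13.20. Eno1 varied least within groups, with a pooled SD of 0.32, and Ldha, Pgk1 and Bnip3 had pooled SDs of 0.73, 0.70 and 0.72.

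Whether radiation shifted these genes was asked by setting irradiated vehicle skin against unirradiated vehicle skin of the same day. Of 50 tests (10 genes on 5 days), 4 passed, all higher in irradiated skin: the glucose transporter gene Slc2a1 on day 14, the enolase gene Eno1 on days 7 and 14, and the hexokinase gene Hk2 on day 1. Differences here and below are tested minus compared mean on the log2 scale with the SE of the limma fit, and a gene was called at a Benjamini-Hochberg adjusted p under 0.05 over all features. By day, 0, 1, 0, 1 and 2 of the 10 members were called, against 7.42, 2.1, 1.3, 4.02 and 6.96% of all features on days -4, 1, 3, 7 and 14. At 1 or 2 of 10 members on a day, these counts are no result about the 10 genes as a group. The median member difference was 0.35, 0.24, 0.40, 0.27 and 0.47 on the 5 days, against 0.07, -0.03, 0.05, -0.06 and 0.01 over all features. These medians include Ankrd37 and Adm, which gave little or no signal.

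Slc2a1 encodes GLUT1, the main glucose importer of keratinocytes and activated leukocytes. On day 14 it read 12.27, 14.47 and 14.57 in irradiated vehicle skin, against 11.01 and 11.55 in unirradiated skin. Every irradiated array lay above both unirradiated ones, and irradiated replicates 2 and 3 were the highest of all 46 arrays for this gene. The difference was 2.49 ± 0.52 (SE, adjusted p = 0.00372). On day 7 it read 13.07, 13.47 and 12.21 in irradiated skin, against 11.71 and 12.02 in unirradiated skin, a difference of 1.05 ± 0.52 that was not called (adjusted p = 0.288). On day 1 the order was turned, with 12.00, 11.52 and 10.73 in irradiated skin and 12.77 and 12.01 in unirradiated skin (-0.98 ± 0.52, adjusted p = 0.365). The change of the radiation effect over the 5 days passed its F-test for Slc2a1 (adjusted p = 0.0433), where 2.16% of features did. Fits within spike-in sets leave out all arrays of set II, among them irradiated replicate 1 of day 14, the lowest of its group. Within spike-in sets the day 14 difference was 3.24 (adjusted p = 5.11e-05). With the set as a block on all arrays the day 14 difference was 2.47 (adjusted p = 0.0035). It was 2.22 without unirradiated replicate 1 (adjusted p = 0.155), and had an adjusted p of 0.755 when the compared groups were fitted alone. The change over days was lost without any 1 of irradiated replicates 2 and 3 and unirradiated replicates 1 and 2 (adjusted p = 0.128 to 0.425).

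Eno1 encodes alpha-enolase, the glycolytic enzyme that makes phosphoenolpyruvate and that is also found on the surface of leukocytes. On day 7 it read 15.47, 15.46 and 15.61 in irradiated vehicle skin, against 14.24 and 13.91 in unirradiated skin. The groups did not overlap, and the gap between them was larger than the whole spread within either group. The difference was 1.44 ± 0.29 (adjusted p = 0.0035), and 1.47 within spike-in sets (adjusted p = 0.00387). On day 14 the arrays read 14.34, 15.34 and 15.83 in irradiated skin, against 14.54 and 13.96 in unirradiated skin, with replicate 1 of the irradiated rats between both unirradiated values. That difference was 0.92 ± 0.29 (adjusted p = 0.045), and 1.02 with the set as a block (adjusted p = 0.0164). It was 1.34 within spike-in sets (adjusted p = 0.00147), where irradiated replicate 1 is left out. On day -4, during the course, Eno1 was on the other side, with 13.26, 13.24 and 13.47 in irradiated skin under 14.30 and 13.92 in unirradiated skin (-0.79 ± 0.29, adjusted p = 0.0882). The change of the radiation effect over the days was called (adjusted p = 0.00853). Without unirradiated replicate 2 the day 7 difference was 1.28 (adjusted p = 0.106) and the change over days had an adjusted p of 0.115. The day 14 call was lost without irradiated replicate 2 (0.83, adjusted p = 0.158) or 3 (0.59, adjusted p = 0.409) and without unirradiated replicate 1 (1.21, adjusted p = 0.143) or 2 (0.63, adjusted p = 0.405). With the compared groups fitted alone its adjusted p was 0.774.

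Hk2, the main hexokinase of muscle, was called on day 1. It read 11.75, 11.84 and 12.16 in irradiated vehicle skin, against 9.43 and 10.39 in unirradiated skin. The 3 irradiated arrays lay close together and clear of both unirradiated ones. The difference was 2.01 ± 0.55 (adjusted p = 0.0477), 2.04 within spike-in sets (adjusted p = 0.141), and 1.53 to 2.48 with any 1 of the 5 replicates left out, when it was never called (adjusted p = 0.0665 to 0.475). Without unirradiated replicate 2, whose day is given in 2 ways, it was 2.48 (adjusted p = 0.0771). Ldha and Pgk1, the lactate dehydrogenase A and phosphoglycerate kinase genes, leaned the same way on day 1, by 1.92 ± 0.65 (adjusted p = 0.104) and 2.11 ± 0.63 (adjusted p = 0.0644). The skeletal muscle markers differed between the same arrays: their list mean was 17.94 to 18.51 in irradiated skin, against 8.36 and 17.00 in unirradiated skin, with 0 of 10 called by limma and 6 at an unadjusted p under 0.05. What part muscle RNA had in the Hk2 difference was not tested.

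The other members did not pass. Pfkfb3, whose enzyme makes the activator of phosphofructokinase, differed by 1.15 ± 0.49 on day -4 (adjusted p = 0.158) and by 1.05 ± 0.49 on day 14 (adjusted p = 0.232). Vegfa, the main growth factor for vessels, differed by 0.94 ± 0.35 on day -4 (adjusted p = 0.0924), where 11.40, 10.65 and 10.84 in irradiated skin lay above 9.91 and 10.13 in unirradiated skin. Bnip3, a mitochondrial receptor that leads to mitophagy, was 1.26 ± 0.61 higher on day -4 (adjusted p = 0.224) and -1.28 ± 0.61 on day 7 (adjusted p = 0.262), with no overlap of the groups on either day. The share of all features without overlap is not given here, so for Vegfa and Bnip3 it is a description only. Adm read 4.98, 6.01 and 10.60 in irradiated skin of day 14, against 5.80 and 4.78 in unirradiated skin at the level of the negative controls. A single array thus carried its difference, which was at least 1.09 from the negative control level. The fitted difference of the signals as deposited was not called by limma (adjusted p = 0.18), and that p does not test the bound. Within spike-in sets Adm was called (adjusted p = 0.0131), with that same array and 1 other against unirradiated arrays under the negative controls.

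**Figure D2:**
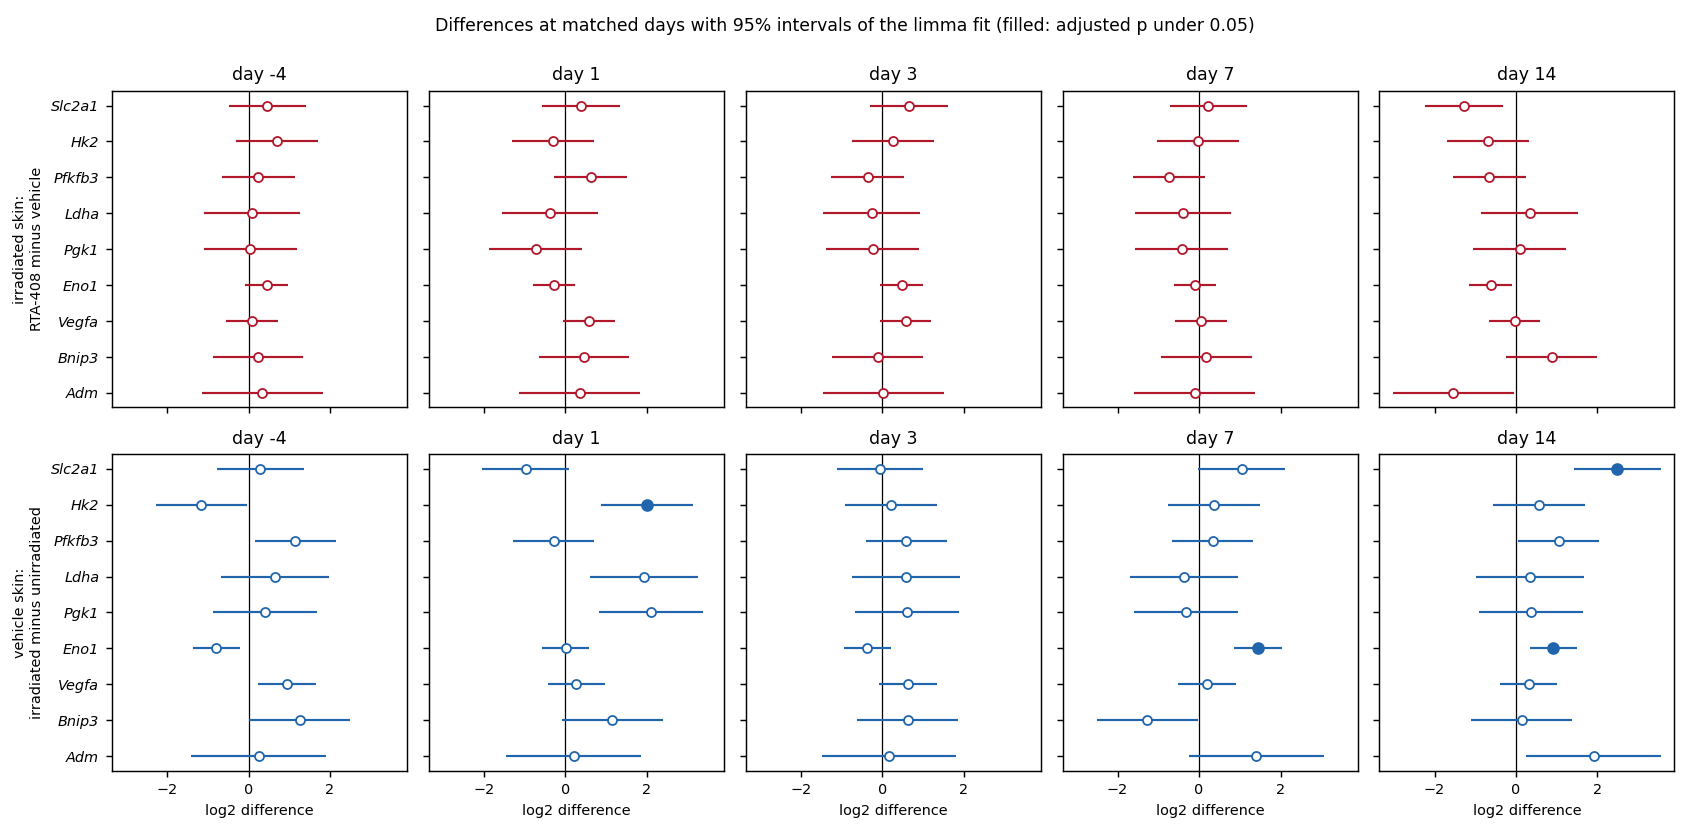
Differences in log2 units (horizontal axes) for 9 genes (down each panel) by day (panels from left to right), RTA-408 minus vehicle in irradiated skin in the upper panels and irradiated minus unirradiated vehicle skin in the lower ones, with 95% intervals of the limma fit. Ankrd37 is left out as it lay under the negative controls, and Adm points are fitted differences of signals mostly at that level; the filled points are the 4 called tests, all in the lower panels, and no upper point is filled.

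The study's title names RTA-408 as the drug tested in irradiated tissue, and whether it altered these genes was asked by setting RTA-408 against vehicle in irradiated skin of the same day. By limma 0 of 10 members were called on each of the 5 days, in 50 tests, where 0.0474, 0.0733, 0.00431, 0 and 0% of all features were called on days -4, 1, 3, 7 and 14. At an unadjusted p under 0.05 by limma there were 1, 0, 1, 0 and 3 members. Over all 23188 features 976, 658, 797, 613 and 2904 had such a p, so day 14 was highest there too. The 2 members of days -4 and 3 were Ankrd37, which lay under the negative controls in both arms. The median member difference was 0.29, 0.37, 0.14, -0.07 and -0.33, against -0.02, -0.00, -0.01, 0.02 and 0.01 over all features. These medians include Ankrd37 and Adm, which gave little or no signal, and show no common lean of the other members. On day 1 those others went both ways, from -0.72 for Pgk1 to 0.62 for Pfkfb3. The irradiated vehicle arrays are shared with the radiation comparison above, so a high vehicle array moves both.

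The 3 members of day 14 were Slc2a1, Eno1 and Adm. Slc2a1 read 12.03, 13.46 and 11.97 in RTA-408 skin, against 12.27, 14.47 and 14.57 in vehicle skin. The groups overlapped, because vehicle replicate 1 lay near the lower RTA-408 arrays and RTA-408 replicate 2 above it. The difference was -1.28 ± 0.47, with a 95% interval of -2.24 to -0.33 (adjusted p = 0.274). RTA-408 replicate 2 and vehicle replicate 1 are the spike-in set II arrays of that day. With the set as a block on all arrays the difference was -1.28 and not called (adjusted p = 0.242). RTA-408 and vehicle groups of a day have the same make-up by set, so this block cannot change the difference itself. Within spike-in sets, which leaves out both of those arrays, it was -2.52 and called (adjusted p = 0.00769). Without vehicle replicate 1 alone it was -2.03 and called (adjusted p = 0.00598), so both calls leave out that array.

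Eno1 read 14.66, 14.61 and 14.37 in RTA-408 skin of day 14, against 14.34, 15.34 and 15.83 in vehicle skin. Here too vehicle replicate 1 lay with the RTA-408 arrays and the other two above them. The difference was -0.62 ± 0.26 (95% interval -1.14 to -0.10, adjusted p = 0.313). It was by design the same with the set as a block (adjusted p = 0.258). It was -1.07 within spike-in sets (adjusted p = 0.0413) and -1.04 without vehicle replicate 1 (adjusted p = 0.013), and both of these fits leave out that array. Adm read 6.02, 5.05 and 5.88 in RTA-408 skin, with 2 of 3 arrays at or below the negative controls, against 4.98, 6.01 and 10.60 in vehicle skin. Since RTA-408 skin lay at the negative controls, its difference has only a bound, -1.16 or lower, which rested on vehicle replicate 3. The fitted difference of the signals as deposited had an adjusted p of 0.38 by limma, which does not test the bound. Without vehicle replicate 1 Adm was called (adjusted p = 0.0303). The macrophage list mean was 11.22, 10.77 and 11.51 in RTA-408 skin of day 14, against 10.76, 11.90 and 15.45 in vehicle skin, with 0 of 10 called by limma and 7 at an unadjusted p under 0.05. Vehicle replicate 1, low in Slc2a1 and Eno1, was also the lowest in macrophage markers, and replicate 3, high in Adm, the highest. Within RTA-408 skin the order was turned, with replicate 2 the highest in Slc2a1 and the lowest in macrophage markers. The part of these cells in the differences was not tested, and in bulk skin fewer cells of a type and less RNA per cell cannot be told apart.

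The RTA-408 and vehicle arrays of Vegfa parted on days 1 and 3 and overlapped on day -4. On day 1 it read 12.06, 11.79 and 11.88 in RTA-408 skin, against 11.42, 11.43 and 11.15 in vehicle skin. On day 3 it read 11.88, 12.19 and 12.01 in RTA-408 skin, against 11.42, 11.68 and 11.26 in vehicle skin. The groups did not overlap on either day, and the differences were 0.58 ± 0.31 (95% interval -0.06 to 1.21) and 0.57 ± 0.31 (-0.06 to 1.21), each with an adjusted p of 1. The groups also parted for Pfkfb3 (higher with RTA-408) and Pgk1 (lower) on day 1 and for Slc2a1 and Eno1 (higher) on day 3, with an adjusted p of 1 for each. Pfkfb3 parted the other way on day 7 (-0.74 ± 0.44, adjusted p = 1), and Ldha parted on day 14, higher with RTA-408 (0.34 ± 0.58, adjusted p = 0.859). Ankrd37, below the negative controls, parted on days -4 and 3. The share of all features whose groups parted is not given here, so these partings are descriptions only. For the glycolytic enzymes between RTA-408 and vehicle the intervals were wide: on day 1 they spanned -1.57 to 0.81 for Ldha and -1.86 to 0.42 for Pgk1. When the 5 days of each rat were averaged, so that a rat counts once, Vegfa was 11.40 ± 0.03 in RTA-408 rats and 11.15 ± 0.13 in vehicle rats (SD, n = 3 each), and Bnip3 11.90 ± 0.20 and 11.57 ± 0.11. Those differences of 0.25 and 0.33 had unadjusted p of 0.038 and 0.0324 by limma and an adjusted p of 1. Of the 10 members 3 had an unadjusted p under 0.05, the other being Ankrd37 below the negative controls, and 0 of 10 members and 0% of all features were called. The change of the RTA-408 effect over the days was called for 0 of 10 members, against 0.0129% of features.

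Per the labels, the skin of day -10 is the level against which the study read its arms. All 3 arms share the 6 baseline arrays. Irradiated RTA-408 skin had 6 of 50 tests called, all higher, irradiated vehicle skin 9 (7 higher, 2 lower), and unirradiated skin 0. By day, RTA-408 skin had 0, 2, 1, 2 and 1 of 10 members called against 5.79, 11, 9.69, 15.8 and 10.2% of all features. Irradiated vehicle skin had 2, 0, 0, 4 and 3 members called against 10.7, 9.72, 8.54, 14 and 15.4%. In unirradiated skin 0 members were called on each day against 0.0173, 0.315, 0, 2.71 and 0% of features. There, 3, 1, 0, 3 and 0 members had an unadjusted p under 0.05 by limma. Over all 23188 features 2115, 3126, 1058, 4045 and 984 had such a p in that arm. The share of members called in RTA-408 skin was near that of all features on days 3, 7 and 14. With 0 to 4 of 10 members on a day, the counts of either irradiated arm are no result about these genes as a group.

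Slc2a1 and Eno1 were called on day 7 in both irradiated arms. Baseline Slc2a1 ran from 9.97 to 11.42 with a median of 11.18, and every day 7 array of both arms lay above it, at 13.01, 13.08 and 13.35 in RTA-408 skin and 13.07, 13.47 and 12.21 in vehicle skin. The differences from baseline were 2.24 ± 0.41 in RTA-408 skin (adjusted p = 0.000131) and 2.02 ± 0.41 in vehicle skin (adjusted p = 0.000552). On day 14 they were 1.59 ± 0.41 (adjusted p = 0.00858) and 2.87 ± 0.41 (adjusted p = 5.79e-06). In unirradiated skin Slc2a1 was 0.97 above baseline on day 7, 0.38 on day 14 and 1.49 on day 1, none of them called. Eno1 ran from 13.77 to 14.38 at baseline with a median of 14.02. On day 7 it read 15.42, 15.26 and 15.53 in RTA-408 skin and lay at 15.46 to 15.61 in vehicle skin, so that every irradiated array lay above the highest baseline one. It was 1.34 ± 0.22 above baseline in RTA-408 skin (adjusted p = 4.15e-05) and 1.45 ± 0.22 in vehicle skin (adjusted p = 1.72e-05). On day 14 Eno1 differed by 0.48 ± 0.22 in RTA-408 skin (adjusted p = 0.179) and by 1.10 ± 0.22 in vehicle skin (adjusted p = 0.00053). With the spike-in set as a block, the Eno1 values of day 7 were 1.34 and 1.45 and both called (adjusted p = 0.0093 and 0.00598), while the Slc2a1 values of day 7 were 1.87 and 1.65 and not called (adjusted p = 0.0671 and 0.135). On day 14 the Slc2a1 values were 1.22 in RTA-408 skin (adjusted p = 0.338) and 2.50 in vehicle skin (adjusted p = 0.0148) with that block, and without RTA-408 replicate 2 the RTA-408 value was 1.10 (adjusted p = 0.177).

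Vegfa and Bnip3 were called above baseline early, in RTA-408 skin. Baseline Vegfa ran from 10.30 to 11.77 with a median of 10.66, and the RTA-408 arrays of days 1 and 3, given above, all lay over the highest baseline array. Vegfa was 1.13 ± 0.27 above baseline on day 1 (adjusted p = 0.00474) and 1.24 ± 0.27 on day 3 (adjusted p = 0.00214) in RTA-408 skin. In vehicle skin it differed by 0.55 ± 0.27 (adjusted p = 0.225) and 0.67 ± 0.27 (adjusted p = 0.124), not called. Both vehicle values were called without baseline replicate 4 (0.75 and 0.87, adjusted p = 0.0392 and 0.0176), with array weights (adjusted p = 0.0346 and 0.0234) and with the replicate block (0.92 and 1.04, adjusted p = 0.0268 and 0.0136). The replicate block matches arrays by a number that has no meaning across arms. Numbers 4, 5 and 6 occur at baseline only, so this block in effect also leaves out baseline replicate 4, and the settings overlap. Bnip3 read 13.20, 12.29 and 12.51 in RTA-408 skin of day 1, over a baseline of 9.50 to 12.16 with a median of 10.96. All 3 arrays lay above the highest baseline array, and the difference was 1.78 ± 0.47 (adjusted p = 0.0104). In vehicle skin of day 1 Bnip3 read 11.70, 12.10 and 12.84 and differed by 1.33 ± 0.47 (adjusted p = 0.0709), and it was called there under the same 3 settings (adjusted p = 0.018 to 0.0213). In unirradiated skin, without drug or radiation, Bnip3 was 1.56 above baseline on day 7 (adjusted p = 0.115). That value too was called under those 3 settings (adjusted p = 0.0338 to 0.0429). A call in one arm alone is not a difference between arms: the direct comparison above gave 0.58 for Vegfa and 0.45 ± 0.55 for Bnip3 on day 1, neither called. Without RTA-408 replicate 1 neither day 1 value was called, at 1.05 for Vegfa (adjusted p = 0.0571) and 1.52 for Bnip3 (adjusted p = 0.106). With the spike-in set as a block Vegfa of day 3 was 0.95 (adjusted p = 0.305).

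Irradiated vehicle skin held the remaining calls. Hk2 was lower on day -4, at 8.80, 8.88 and 10.02 against a baseline of 9.67 to 11.93 with a median of 10.88, a difference of -1.65 ± 0.43 (adjusted p = 0.0105). Eno1 was lower on that day by 0.74 ± 0.22, with all 3 arrays under the lowest baseline array (difference -0.74, adjusted p = 0.0253). Both were lost without vehicle replicate 1 (adjusted p = 0.0858 for Hk2 and 0.0642 for Eno1) or 2 (adjusted p = 0.0755 and 0.116), and Eno1 without baseline replicate 5 too (adjusted p = 0.0548). Within spike-in sets neither was called (adjusted p = 0.126 for Hk2 and 0.0703 for Eno1). With the rat as a fixed block Eno1 was not called (-0.58, adjusted p = 0.326), whereas Hk2 was (-2.28, adjusted p = 0.0178). The spike-in set as a block also lost Eno1 (adjusted p = 0.051) and kept Hk2 (adjusted p = 0.0324), and the replicate block lost both. Pfkfb3 was higher on day 7, at 9.12, 9.43 and 8.87 over a baseline of 7.05 to 8.76 with a median of 7.96 (1.23 ± 0.38, adjusted p = 0.0253). Adm on day 7 read 6.31, 5.79 and 8.23 over a baseline of 4.64 to 5.28, which is under the negative controls. Its difference is thus at least 0.61 on day 7 and at least 1.03 on day 14. The limma fit of the signals as deposited called Adm on both days (adjusted p = 0.0452 and 0.0108), and those p-values do not test the bounds. Both Adm calls were lost without vehicle replicate 3 (adjusted p = 0.0555 and 0.468), and that of day 7 without any 1 baseline array (adjusted p = 0.051 to 0.0734). Both were also lost with the spike-in set as a block (adjusted p = 0.413 and 0.242) and with the rat as a fixed block (adjusted p = 0.364 and 0.166). Pfkfb3 was not called with the spike-in set as a block (1.22, adjusted p = 0.286) or the rat as a fixed block (0.44, adjusted p = 0.698), nor without vehicle replicate 1 or 2 or baseline replicate 1 or 2 (adjusted p = 0.0606 to 0.148).

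The same rats gave the days of an arm and some gave a baseline biopsy, and with the rat as a fixed block 11 of 50 tests were called in RTA-408 skin and 5 of 50 in vehicle skin against baseline. The gain in RTA-408 skin was mostly Pfkfb3, called on days -4, 1, 3 and 7 with differences of 1.92, 1.74, 1.50 and 1.32, with 1.32 on day 7 at an adjusted p of 0.0426. Only RTA-408 replicates 1 and 2 and vehicle replicates 1 and 2 have a baseline biopsy of their own among these arrays. Within spike-in sets, which day -4 and day 1 allow, 1 of 20 tests was called in RTA-408 skin (Vegfa of day 1, 1.14, adjusted p = 0.0343) and 0 of 20 in vehicle skin, against 2 and 2 without that restriction.

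**Figure D3:**
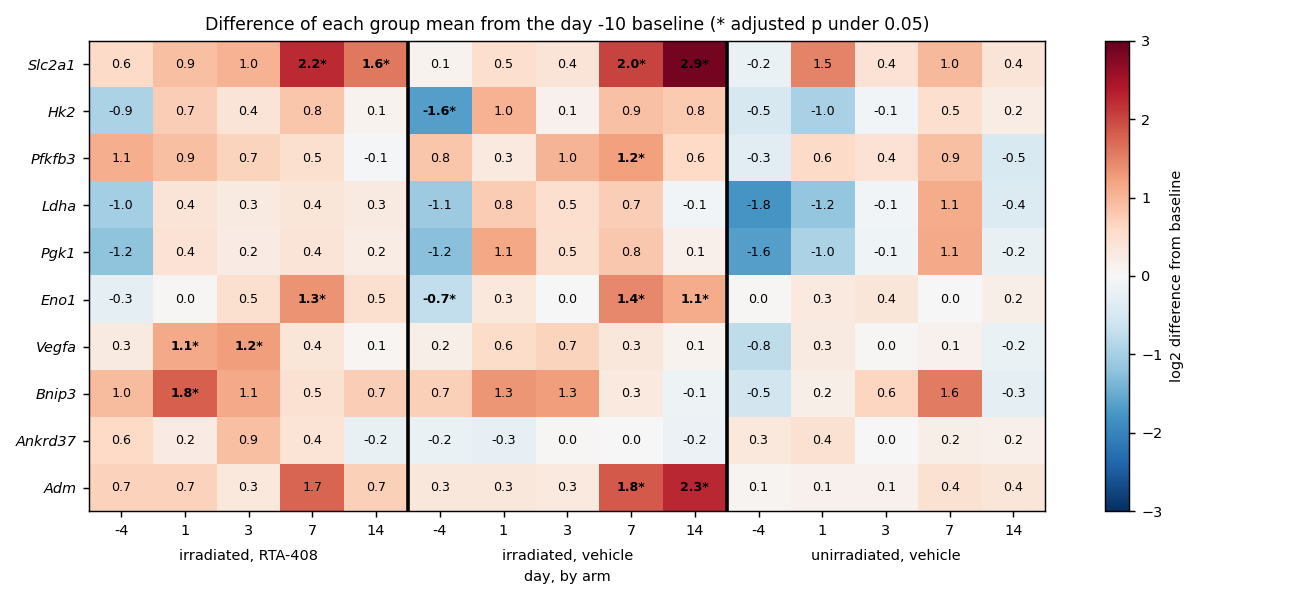
Difference of each group mean from the 6 baseline arrays in log2 units (colour and printed value) for each gene (rows) and day (columns) in RTA-408, irradiated vehicle and unirradiated vehicle skin; asterisks mark adjusted p under 0.05. The values of Ankrd37 and Adm are fitted differences from a baseline under the negative controls and are no measured sizes; the marked cells number 6, 9 and 0 in the 3 arms, and Slc2a1 and Eno1 are marked on day 7 in both irradiated arms.

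Within the arms, the level over the 5 days changed for 2 members in RTA-408 skin, 4 in irradiated vehicle skin and 0 in unirradiated skin, by the moderated F-test of limma, against 6.26, 14.2 and 1.13% of all features. Eno1 changed in both irradiated arms (adjusted p = 0.000602 with RTA-408 and 1.2e-06 with vehicle), with its lowest group mean on day -4 and its highest on day 7. In RTA-408 skin its means were 13.76, 14.10, 14.55, 15.41 and 14.55 on days -4, 1, 3, 7 and 14, and in vehicle skin 13.32, 14.37, 14.07, 15.51 and 15.17. Vegfa changed in RTA-408 skin (adjusted p = 0.0248), with means of 11.05, 11.91, 12.03, 11.16 and 10.85. The peak of Vegfa on days 1 and 3 thus came before that of Eno1 on day 7 in the same biopsies, as a description of these means. In vehicle skin Slc2a1 (adjusted p = 0.000117), Hk2 (adjusted p = 0.000765) and Pgk1 (adjusted p = 0.0193) changed too. Hk2 means there were 9.23, 11.92, 11.01, 11.76 and 11.67, and Pgk1 means 13.45, 15.85, 15.18, 15.51 and 14.84, with the lowest on day -4 for both. Skeletal muscle markers were also lowest on that day, at a list mean of 15.08 on day -4 and 18.16, 17.86, 17.59 and 15.47 later. The Vegfa change was lost without any 1 of the 3 RTA-408 replicates (adjusted p up to 0.256), the Eno1 change in RTA-408 skin without replicate 3 (adjusted p = 0.0587), and the Pgk1 change without vehicle replicate 1 or 2 (adjusted p up to 0.305).

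The order of group means differed between the members. Slc2a1 was highest in irradiated vehicle skin of day 14 (13.77 ± 1.30, SD, n = 3), followed by RTA-408 skin of day 7 (13.14 ± 0.18) and vehicle skin of day 7 (12.92 ± 0.64), which lay within their spread of each other. Its lowest means were baseline (10.90 ± 0.58, n = 6) and unirradiated skin of day -4 (10.71 ± 0.04, n = 2). Eno1 was highest in vehicle and RTA-408 skin of day 7 (15.51 ± 0.08 and 15.41 ± 0.14) and lowest in vehicle skin of day -4 (13.32 ± 0.13). Vegfa was highest in RTA-408 skin of days 3 and 1 (12.03 ± 0.15 and 11.91 ± 0.14), and Bnip3 in RTA-408 skin of day 1 (12.66 ± 0.47), with unirradiated skin of day 7 next (12.44 ± 0.57). Ldha was highest in unirradiated skin of day 7 (17.13 ± 0.32), and Pgk1 in vehicle skin of day 1 (15.85 ± 0.34) and unirradiated skin of day 7 (15.84 ± 0.19). Neighbours in these pairs did not differ beyond their spread.

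Over the 16 group means, some members ran together and others did not. Ldha and Pgk1 were closest (Pearson r = 0.986), and Hk2 ran with both (0.858 with Pgk1 and 0.805 with Ldha). Slc2a1 ran with Adm (0.868) and Eno1 (0.815), Eno1 with Adm (0.766), and Vegfa with Bnip3 (0.749). Slc2a1 and Bnip3 (r = -0.07) and Eno1 and Bnip3 (r = -0.26) did not. These are descriptions over means that share rats, spike-in sets and tissue make-up. Outside the members, the closest features were Gapdh and Cacna2d1 for Ldha (0.989 and 0.979), Gapdh and Pkm for Pgk1 (0.968 each), and Pgam1 and Chid1 for Eno1 (0.946 and 0.93). Slc2a1 was closest to Ikzf1, a transcription factor of lymphoid and myeloid cells, and Plekho1 (0.954 each), Adm to P2ry6 and Tfec (0.966 and 0.961), and Vegfa to Stmp1 and Rgs4 (0.921 and 0.914). For Hk2 they were G3bp2 and Ehd3 (0.939 and 0.928), for Bnip3 Gpx4 and Dnajb4 (0.929 and 0.928), and for Pfkfb3 Sav1 and Pals1 (0.844 and 0.825).

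Cell type markers moved with several of these patterns. On day 14 all 10 macrophage markers were higher in irradiated than in unirradiated vehicle skin, and 5 of 10 were on day 7. Their list mean was 11.06 to 12.52 in irradiated and 8.96 to 9.28 in unirradiated skin of day 7, and 10.76 to 15.45 and 8.48 to 9.40 on day 14. Neutrophil markers were higher for 3 of 10 on day 7 and 4 of 10 on day 14, with Ngp and Camp at the negative control level on all arrays. All 3 wound keratinocyte markers measured were higher on day 7, with a list mean of 17.03 to 18.58 in irradiated and 14.39 to 14.49 in unirradiated skin. Against baseline on day 7, 10 of 10 macrophage markers were higher in RTA-408 skin and 10 of 10 in vehicle skin. Over the 16 group means, the list of T and NK cell markers ran with Slc2a1 at r = 0.925, with Adm at 0.883 and with Eno1 at 0.77, although its group means of 4.57 to 6.44 lay at or near the negative controls, whose medians were 5.78 to 6.52. The neutrophil list ran with Adm at 0.901, with Eno1 at 0.88 and with Slc2a1 at 0.866, the macrophage list with Adm at 0.889 and with Slc2a1 at 0.822, the muscle list with Ldha at 0.868 and Pgk1 at 0.846, and the endothelium list with Vegfa at 0.863. Other lists ran the opposite way: hair matrix and cell division with Vegfa at -0.685 and -0.69, and with Bnip3 at -0.647 and -0.744. Cell division ran with Eno1 at 0.467. The hair matrix list averaged 15.47 in unirradiated and 7.69 in irradiated vehicle skin of day -4, and 6.60 in unirradiated skin of day 7. The part of these cell types in the members' differences was not tested.

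**Figure D4:**
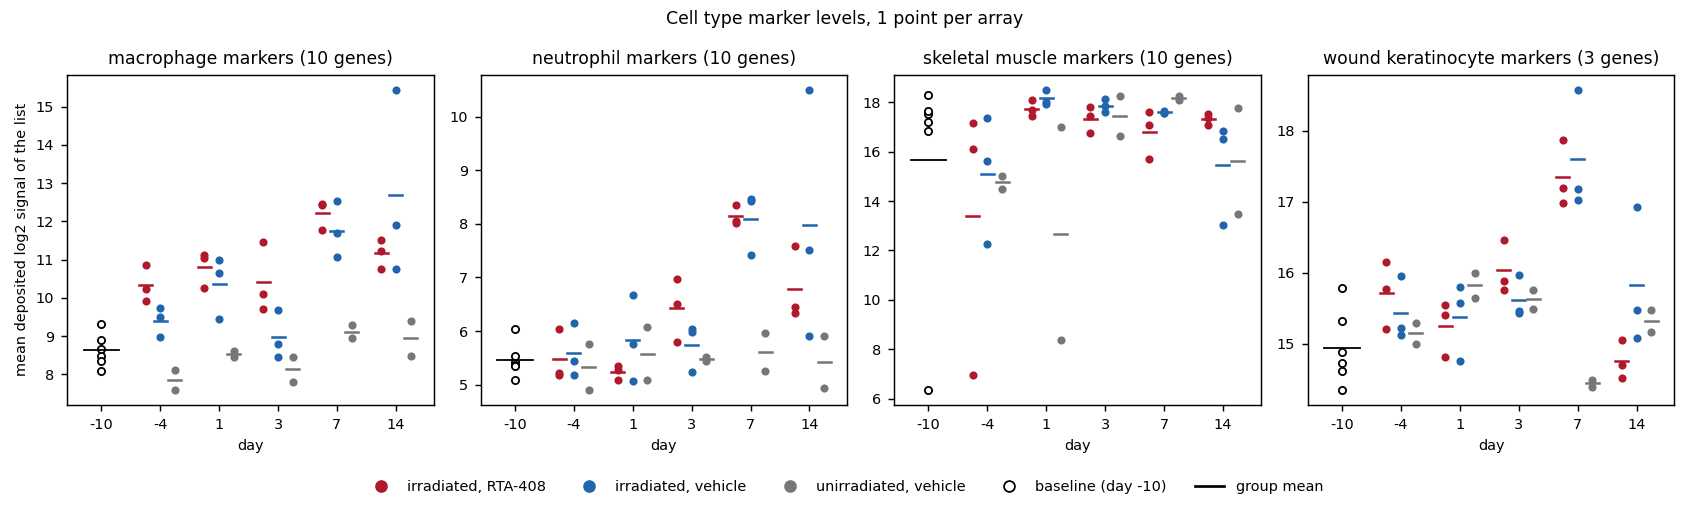
Mean deposited log2 signal of 4 lists of cell type markers on each array by day, with group means as bars. All irradiated arrays of day 7 lie above the unirradiated ones in the macrophage, neutrophil and wound keratinocyte lists, 1 irradiated vehicle array of day 14 is the highest in macrophage (15.45) and neutrophil (10.51) markers, and the muscle list scatters from 6.35 to 18.51.

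**Figure D5:**
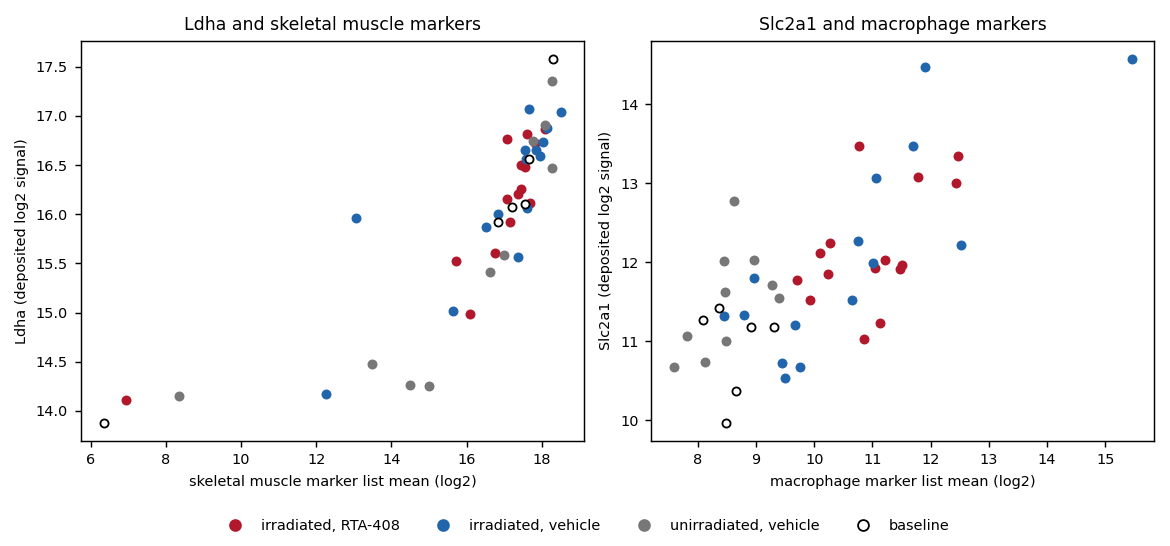
Ldha against the mean of the skeletal muscle markers (left) and Slc2a1 against the mean of the macrophage markers (right), both in log2 units, with 1 point per array coloured by arm. The 3 arrays with the lowest muscle means, 6.35, 6.95 and 8.36, have Ldha of 13.88, 14.11 and 14.15, and the arrays with the highest Slc2a1, 14.47 and 14.57, have macrophage means of 11.90 and 15.45.

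The other genes of the pathway were counted by list, against the 7.42, 2.1, 1.3, 4.02 and 6.96% of all features called on the 5 days. The list of other HIF targets had 29 genes measured, of which 0, 1, 1, 0 and 1 were higher and 1, 3, 2, 1 and 0 lower in irradiated than in unirradiated vehicle skin on days -4, 1, 3, 7 and 14. Those that were lower than in unirradiated skin included the transferrin receptor gene Tfrc on day -4 (-3.43 ± 0.43, adjusted p = 7.43e-06), the carbonic anhydrase gene Car12 on day 3 (-2.92 ± 0.60, adjusted p = 0.00746) and Ndufa4l2 on day 7 (-2.79 ± 0.77, adjusted p = 0.0325). P4ha1, a collagen prolyl hydroxylase subunit, was higher on day 14 (1.17 ± 0.33, adjusted p = 0.0256). Of 29 other glycolysis genes, 1, 2, 0, 1 and 1 were higher and 0, 0, 0, 0 and 2 lower. Pgam1, the phosphoglycerate mutase that acts just before enolase, was higher on day 7 (1.80 ± 0.31, adjusted p = 0.00105), and Ldhb was lower on day 14 (-1.60 ± 0.38, adjusted p = 0.0096). Hk1, the hexokinase of most tissues, was higher on day -4 (1.33 ± 0.28, adjusted p = 0.00476).

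Among 11 HIF regulators, 1 was higher on day 7 and 2 were lower on day 1. The 1 was Hif1a itself, with means of 14.14 in irradiated and 12.72 in unirradiated vehicle skin (1.41 ± 0.36, adjusted p = 0.0196). Against baseline Hif1a was also higher on day 7, by 1.54 ± 0.28 in RTA-408 skin (adjusted p = 0.000119) and by 1.48 ± 0.28 in vehicle skin (adjusted p = 0.00023). The 2 lower on day 1 were the HIF prolyl hydroxylase gene Egln3 (-1.32 ± 0.35, adjusted p = 0.0386) and the co-activator gene Crebbp (-0.77 ± 0.20, adjusted p = 0.0381). HIF-1 alpha is controlled mainly as a protein, which was not measured.

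Of 15 partners of VEGF and adrenomedullin, 3 were higher on day -4 and 3 on day 14 in irradiated vehicle skin, and none was lower on any day. On day -4 they included Calcrl, the receptor chain of adrenomedullin (1.69 ± 0.44, adjusted p = 0.0156), and the scavenger receptor gene Ackr3 (1.55 ± 0.46, adjusted p = 0.0352). On day 14 they included the VEGF receptor gene Kdr (1.29 ± 0.34, adjusted p = 0.0166). Endothelium markers were higher for 4 of 8 on day -4 and 1 of 8 on day 14, and Kdr is in both lists. Of 12 genes of BNIP3 relatives and mitophagy, 0 were called by limma between irradiated and unirradiated vehicle skin on any day. An unadjusted limma p under 0.05 was found for 2, 3, 1, 2 and 2 on days -4, 1, 3, 7 and 14. Over all 23188 features it was found for 4963, 3810, 3156, 4162 and 4264. Against baseline, 4 of the 12 were higher in RTA-408 skin of day 1, when Bnip3 was called and 11% of all features were, among them the mitophagy adaptor gene Sqstm1, which is also a target of NRF2 (1.34 ± 0.30, adjusted p = 0.00289), and Gabarapl1 (1.09 ± 0.25, adjusted p = 0.00278). In vehicle skin of day 1, 1 of the 12 was higher, with 9.72% of all features called. Between RTA-408 and vehicle skin 0 genes of the 6 pathway lists, with 101 genes measured in all, were called by limma on any day. At an unadjusted limma p under 0.05 these genes numbered 4, 5, 3, 1 and 16 on days -4, 1, 3, 7 and 14. Over all 23188 features the counts were 976, 658, 797, 613 and 2904. The rise on day 14 was thus also seen over all features.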

How the data were processed

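Rat skin RNA (100 ng per array, mean RNA integrity number 7.15) was labelled with biotin and hybridised to Clariom S arrays, per the labels' protocols. The deposited table holds 1 log2 value per feature and array; the summarisation and normalization the authors used are not given in the sources used here. Values reach 19.93, so differences are given on the deposited log2 scale and not as folds. The 1646 control features were left out, and 23188 features were tested without a filter on dim ones. Groups, days and rats were taken from the labels. The limma package (version 3.58.1, R 4.3.3) fitted 1 mean for each of 16 groups over 46 arrays (30 residual degrees of freedom). P-values were Benjamini-Hochberg adjusted over all features for each comparison and day, and changes over the 5 days were tested with moderated F-tests. No depth applies to arrays: their number limits the precision, and p-values treat repeated biopsies of a rat as separate except where the rat is named. A feature was held to be without measurable signal at or below its array's median of 1153 negative control features (5.78 to 6.52). Symbols came from the platform annotation, and all 15049 features with 1 symbol matched RefSeq by gene ID. All members are named. Of other genes, up to 2 called ones with the largest difference per pathway list, comparison and day are named, and the 2 closest to each member by Pearson r over the 16 group means. The members and gene lists were chosen with earlier results of these data known. Same-numbered arrays of an arm come from the same rat per the labels, while across arms a number is only a number. Deviations from the group means correlated at a median of 0.0279 between days of the same rat (74 pairs of arrays). Tests were checked on simulated data. Alternatives were quantile normalization, array weights, blocks by replicate number, rat and spike-in set, and the compared groups alone. Others left out the 5797 dimmest features, each replicate in turn, or the set II arrays (within spike-in sets).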

Additional observations from a re-analysis of the deposited data

Results flagged for a closer look

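The radiation effect on Slc2a1 and on Eno1 differed between days by limma's moderated F-test of the difference itself (adjusted p = 0.0433 for Slc2a1 and 0.00853 for Eno1). For Slc2a1 it was -0.98 on day 1 and 2.49 on day 14, and for Eno1 -0.79 on day -4 and 1.44 on day 7. The Slc2a1 result rested on single replicates, with an adjusted p of 0.159 without irradiated vehicle replicate 2.

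Ankrd37 read 3.11 on baseline replicate 4, apart from the other 5 baseline arrays. All 6 values lie below the negative controls, and a limit set at 95%, as here, marks about 1 in 20 groups by chance.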

How the results depend on the processing

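The 27 called results of single genes were refitted 403 times in all: 332 refits kept the call, 71 lost it and 0 changed direction. Of 50 tests each, array weights gave 9 calls between irradiated and unirradiated vehicle skin (4 without weights), 10 in RTA-408 skin against baseline (6), 14 in irradiated vehicle skin against baseline (9), 3 in unirradiated skin against baseline (0), and 2 genes changing over the days in unirradiated skin (0). The replicate block gave 2 calls for radiation and 1 for unirradiated skin against baseline. The spike-in set as a block gave 3 calls in RTA-408 and 4 in irradiated vehicle skin against baseline. Within spike-in sets, where the set II arrays are left out, 2 calls appeared between RTA-408 and vehicle (0 in the fit of all arrays). Against baseline on days -4 and 1 those fits gave 1 call in RTA-408 and 0 in irradiated vehicle skin (2 each otherwise). With the compared groups alone, the radiation effect changed over the days for 0 genes (2 otherwise). The rat as a fixed block, chosen after seeing the data, gave 11 calls in RTA-408 and 5 in irradiated vehicle skin against baseline. The cause of these shifts was not tested.

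Leaving out 1 replicate gave 0 to 3 calls for RTA-408 against vehicle (3 without irradiated vehicle replicate 1), 1 to 4 for radiation, 4 to 8 for RTA-408 skin against baseline, 6 to 15 for irradiated vehicle skin against baseline (15 without baseline replicate 4) and 0 to 1 for unirradiated skin. Changes over the days numbered 0 to 2 for the radiation effect, 0 to 2 in RTA-408 skin and 3 to 4 in irradiated vehicle skin. Where an unirradiated replicate was left out, the lone array was assumed to vary like the other groups. Alternatives by spike-in set, rat or compared groups were not run for rat means, and within-set fits could not be made over the days or against baseline on days 3, 7 and 14. With 2 or 3 arrays a group and signals near the negative controls, Adm and Ankrd37 allow only bounds or no statement.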
